A study of Mus musculus with 22 samples.

Results

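The cells described here are neutrophils of the small intestine rich in transcripts of the granule genes Ngp, Ltf and Camp. A cell belonged to the group if it held at least 500 transcripts in all, at least 2 transcripts of Ngp, Ltf and Camp together, and at most 2 of the macrophage genes C1qa, C1qb and C1qc together. Members were thus chosen by measured transcript numbers of these 6 genes and by depth. The rule found 52 such cells among 1383 cells with at least 500 transcripts, out of 4224 barcodes in 22 libraries. They were compared with 637 other neutrophil cells of the same libraries, which held at least 5 transcripts of S100a8 and S100a9 together, at most 1 of Ngp, Ltf and Camp, and at most 2 of the C1q genes. The remaining 694 cells met neither rule.

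Leukocytes from 4 cm segments of the terminal ileum passed a sort for CD45+H2kb+CD11b+Ly6G+, markers that together select neutrophils of the donor, and were sequenced by CEL-Seq2, which counts transcript 3′ ends with molecular identifiers. All recipients were BALB/c mice of 7 to 9 weeks that had been irradiated with 2 doses of 5 Gy, had received 5000000 bone marrow cells from C57BL/6 donors (7 to 10 weeks, female) and were sampled on day 21. The 12 libraries of acute graft-versus-host disease (aGVHD) came from recipients that also received 400000 donor T cells. The 10 control libraries came from recipients of bone marrow without T cells, so conditioning and an allogeneic transplant were common to both groups. Library titles formed a dated set (6 control and 8 aGVHD libraries) and a G1 set (4 and 4), and no label tied a library to a mouse. Libraries may therefore share a mouse, and p-values over libraries measure only the spread between these samples, which may be technical.

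Neutrophils fill their granules in a fixed order while they mature in the bone marrow. Proteins of the primary granules, such as myeloperoxidase, are transcribed in early, dividing precursors. Those of the specific granules, such as lactoferrin and cathelicidin, follow in myelocytes and metamyelocytes, and gelatinase granule proteins come last. Transcripts of specific granule genes are low in mature blood and tissue neutrophils, whose RNA is richer in receptor and cytokine genes.

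The gate genes all encode specific granule proteins. Ngp encodes neutrophilic granule protein, Ltf encodes lactoferrin, which binds iron, and Camp encodes the cathelicidin precursor of an antimicrobial peptide. Camp, Ngp and Ltf lie in that order on chromosome 9. Lcn2, on chromosome 2, encodes lipocalin-2, which binds iron-loaded siderophores of bacteria and is the gene in the study's title. Their promoter sequences are shown because these genes define the group and Lcn2 had the lowest adjusted p of the genes tested. Each stretch is read 5′ to 3′ from RefSeq on GRCm38.p6. It starts 250 bases before the RefSeq start and stops before the first start annotated by GENCODE. Capitals mark the letters TTNNGCAA or, on the other strand, TTGCNNAA, a core of the kind that C/EBP factors bind.
Ngp, chr9:110419558-110419746, plus strand: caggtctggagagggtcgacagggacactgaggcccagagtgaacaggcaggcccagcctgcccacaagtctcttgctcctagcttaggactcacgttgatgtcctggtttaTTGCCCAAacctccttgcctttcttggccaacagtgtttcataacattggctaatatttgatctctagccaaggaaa
Ltf, chr9:111019042-111019270, plus strand: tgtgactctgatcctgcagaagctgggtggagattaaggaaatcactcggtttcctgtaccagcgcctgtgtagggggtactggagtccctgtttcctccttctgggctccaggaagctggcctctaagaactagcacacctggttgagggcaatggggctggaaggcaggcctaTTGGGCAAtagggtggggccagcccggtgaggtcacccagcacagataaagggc
Camp, chr9:109849618-109849706, minus strand: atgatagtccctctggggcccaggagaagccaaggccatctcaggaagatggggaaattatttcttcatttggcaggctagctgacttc
Lcn2, chr2:32387798-32387989, minus strand: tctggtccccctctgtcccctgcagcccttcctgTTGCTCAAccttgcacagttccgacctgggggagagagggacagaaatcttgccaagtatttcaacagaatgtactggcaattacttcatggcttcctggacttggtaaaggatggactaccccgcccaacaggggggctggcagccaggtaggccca
Within the full 250 bases, Ngp held 2 matches, Ltf and Lcn2 held 1 each and Camp held 0. The second Ngp match lies 3 bases before the RefSeq start, past the stretch shown. Of 32851 promoters in the table, 3142 (9.56%) held a match in the same window. Of the 8 genes given as markers of the group, 6 held at least 1 match (Ngp, Ltf, Lcn2, Retnlg, Mmp8 and 1 of 2 Ly6g entries). A match is a description of the letters and not a binding site.

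The 52 cells came from few libraries. In aGVHD, replicate 6 held 17, replicate 7 held 18 and replicate 4 held 7. Replicates 3 and 11 held 3 each, replicate 10 held 2 and replicate 2 held 1, and the other 5 aGVHD libraries held 0. In control, replicate 3 held 1 and the other 9 libraries held 0. Replicates 6 and 7 of aGVHD together gave 35 of the 52 cells (67.3%).

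As a share of all neutrophil cells, meaning granule-gene-rich plus other neutrophil cells, the group made up 26.6% of 64 cells in aGVHD replicate 6 (exact 95% interval 16.3% to 39.1%) and 24.3% of 74 in replicate 7 (15.1% to 35.7%). In aGVHD replicate 4 it made up 10.8% of 65 cells (4.44% to 20.9%). The other 4 aGVHD libraries with any such cell ran from 2.50% to 7.41%. The 1 control library with any stood at 4.17% of 24 cells (0.105% to 21.1%). Some cells of those 4 aGVHD libraries, all counted here and in the mean below, lacked the other markers. The only cell of replicate 2 held Ltf alone of the gate genes and 0 of Lcn2, Retnlg, Mmp8 and Ifitm6. So did a cell of replicate 3 and a cell of replicate 11. Both cells of replicate 10 held Camp alone and 1 of Lcn2. A further cell of replicate 11 held mostly immunoglobulin transcripts, as given below. The rest, in replicates 3 and 11, held Ngp and 5 to 39 of Lcn2. The groups overlapped, since 5 aGVHD libraries stood at 0 like 9 of the control libraries. Control libraries held only 2 to 26 neutrophil cells against 27 to 74 in aGVHD, so that 0 of 26 cells in control replicate 2 still allows a share of up to 11.5% if 3 counts are taken as the limit of a count of 0 (13.2% by the exact interval). Intervals and limits cover counting error only.

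The mean share was 7.01% ± 9.37 (SD, n = 12) in aGVHD and 0.417% ± 1.32 (SD, n = 10) in control libraries. The difference of 6.60 percentage points passed a two-sided permutation test within title sets (p = 0.0281, 100000 resamples). Pooled over libraries, 51 of 564 neutrophil cells in aGVHD (9.04%) and 1 of 125 in control (0.8%) were granule-gene-rich. The difference had the same direction in each title set but did not pass alone. Among dated libraries it was 7.25 points (exact p = 0.193 by permutation), and among G1 libraries 5.15 points (exact p = 0.143). Without aGVHD replicates 6 and 7 together it was 2.91 points (permutation p = 0.0582). Each cell thinned to 500 transcripts before the rule was applied gave 3.25 points (exact permutation p = 0.273, 8 control libraries with any such neutrophil cell). Thinning left 21 granule-gene-rich cells, 1 of them in control.

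**Figure D1:**
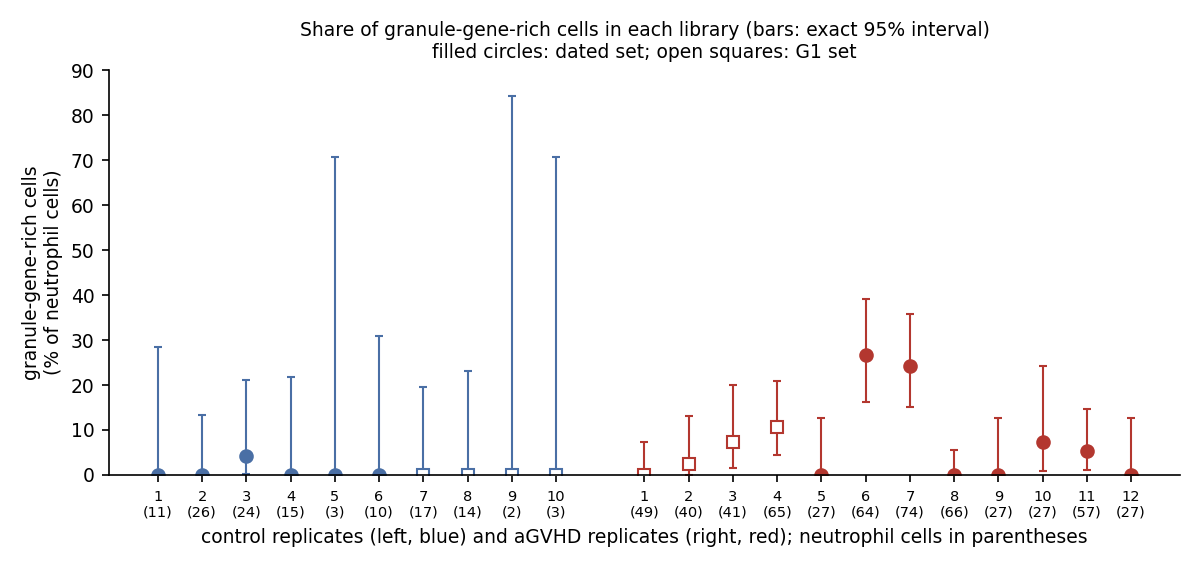
Share of granule-gene-rich cells among neutrophil cells (%, y axis) in each of the 10 control (blue) and 12 aGVHD (red) libraries, with the number of neutrophil cells in parentheses; bars are exact 95% binomial intervals, circles the dated set and squares the G1 set. The aGVHD replicates 6 (26.6%) and 7 (24.3%) stand highest, and control replicates 5, 9 and 10, with 2 or 3 cells each, have intervals reaching over 70%.

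The gate values, which chose the cells and are given as a description, spanned a wide range. The sum of Ngp, Ltf and Camp had a median of 3.5 transcripts per cell and a highest value of 591. Just inside the threshold, 16 cells held exactly 2 transcripts and 10 held 3. Just outside it, 53 of the other neutrophil cells held 1, and 584 held 0. In all, 28 cells held 2 to 4, 16 held 5 to 19 and 8 held 20 or more. The 4 highest cells held 72.5% of all gate transcripts.

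The 8 cells with 20 or more came from aGVHD replicates 4, 6 and 7. The highest, in replicate 6, held 273 transcripts of Ngp, 177 of Ltf and 141 of Camp, which were 5.85% of its 10094 transcripts. The second, in replicate 7, held 278, 125 and 49. All 3 genes were found together in 11 cells, Ngp alone in 21, Ngp with Ltf in 7 and Ngp with Camp in 5. Ltf alone was found in 6 and Camp alone in 2. So Ngp was found in 44 of the 52 cells, Ltf in 24 and Camp in 18. The granule-gene-rich cell of the control group lay at the lower end, with 3 gate transcripts among 1813, and was also the only 1 of the 52 with fewer than 5 transcripts of S100a8 and S100a9.

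**Figure D2:**
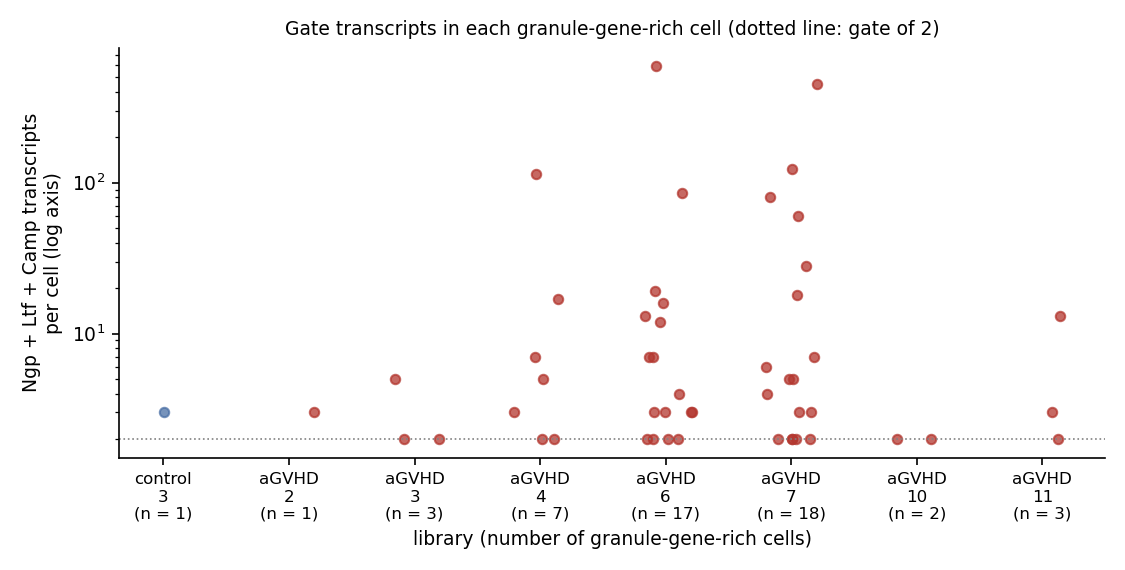
Transcripts of Ngp, Ltf and Camp together in each of the 52 granule-gene-rich cells (y axis, log scale), by library; each point is 1 cell and the dotted line is the gate of 2. The values run from 2 to 591, and the cells with 20 or more lie in aGVHD replicates 4, 6 and 7.

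The 2841 barcodes under 500 transcripts held 29 gate transcripts in all, 0.851 per 10000 transcripts, and 3 of them held 2 or more. Whether these transcripts were free RNA or the RNA of cells was not tested. The rate was 0, 4.27 and 12.4 per 10000 in aGVHD replicates 4, 6 and 7. It rested on only 0, 4 and 9 gate transcripts, as do the counts of cells below it. In the group itself the gate genes took 52.3, 85.0 and 95.5 per 10000 transcripts in these libraries, mostly in few cells. Single granule-gene-rich cells below the rate of such barcodes of their own library numbered 0 of 7, 3 of 17 and 7 of 18, and all but 1 of these 10 held 2 to 4 gate transcripts. The part of free RNA in the membership of these cells was not tested. The median depth was 3965 transcripts per granule-gene-rich cell and 2434 per other neutrophil cell, and a deeper cell reaches 2 transcripts more easily. Within the group, the gate sum was not ordered by depth (Spearman's rho 0.05 over 52 cells, as a description). The part of depth in membership was not tested beyond the thinned share given above.

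The label of immature neutrophils was met in part. Of the primary granule genes, 5 of 9 were in the tables. Mpo (myeloperoxidase) and Ctsg (cathepsin G) were found in 0 of 52 cells, which allows up to 5.77% of cells with a transcript, and Prtn3 (proteinase 3) in 1 cell with 1 transcript. Ctsc and Cd63 of the same list were present, with 38 and 20 transcripts in the group in aGVHD replicates 4, 6 and 7. Ctsc did not pass (log2 fold change 0.86, limma adjusted p = 0.236) and Cd63 was not tested. Summed, the list stood at 179, 461 and 580 CPM in these libraries, against 451, 314 and 306 CPM in other neutrophil cells. The proliferation gene Mki67 was found in 3 of the 52 cells (5.77%) and 48 of the 637 others (7.54%). Within aGVHD replicates 4, 6 and 7 it was found in 0%, 11.8% and 5.56% against 8.62%, 6.38% and 3.57%. The summed level of 20 cell cycle genes was 1203 to 1315 CPM over aGVHD replicates 4, 6 and 7, against 826 to 1490 in other neutrophil cells. Cebpe, a transcription factor needed for specific granules, gave 3 transcripts in 3 of the 52 cells (5.77%). It was found in 3 of the 637 others (0.471%), which come from all 22 libraries. Within aGVHD replicates 4, 6 and 7 it was found in 0%, 0% and 11.1%, against 0% in each. Thinned to 500 transcripts, Cebpe was found in 1 of 52 and 1 of 637 cells. In cells thinned to 1000 it was found in 0 of 51 and 2 of 592. Cebpa, Gfi1 and Myb gave 0 in the group, while each was found among the others. Here and below, CPM is the number of transcripts per 1000000 transcripts of named genes, without the gate, C1q and S100a8/S100a9 genes. CEL-Seq2 counts 1 end per transcript, so no length correction was made.

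Genes of mature neutrophils were present as well. Cxcr2, the chemokine receptor that draws mature neutrophils out of the marrow, was found in 41 of 52 cells (78.8%) and in 454 of 637 others (71.3%). Within aGVHD replicates 4, 6 and 7 its shares were 85.7%, 88.2% and 88.9% against 63.8%, 80.9% and 69.6%. Over all libraries its shares were 32.7% and 25.1% with cells thinned to 500 transcripts. With cells thinned to 1000 they were 45.1% and 45.1%. Its level was 1435, 1303 and 1630 CPM in aGVHD replicates 4, 6 and 7, against 1140, 1488 and 1562 CPM in the other neutrophil cells. The cells are therefore called granule-gene-rich neutrophils below. In these bulk sums a lower share of cells with a gene and less RNA of it per cell cannot be told apart.

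The other genes were compared between both kinds of cell inside the libraries that held at least 5 of each. These were aGVHD replicates 4 (7 and 58 cells), 6 (17 and 47) and 7 (18 and 56). Transcripts were summed per library and kind and tested with limma, with the library as a block (n = 3 libraries). The 8 genes of both rules were left out of the table. Of 1121 genes tested, 85 (7.58%) had an adjusted p under 0.05, 56 of them higher (5%) and 29 lower (2.59%) in granule-gene-rich cells. The median log2 fold change over all genes was 0.01. Leaving out aGVHD replicate 6 left 26 genes called (of 1177) and leaving out replicate 7 left 27 (of 1052), 24 and 25 of which were among the 85. Restricting the group to cells with 2 to 4 gate transcripts, of which 17 lay in the 2 libraries that could be fitted (aGVHD replicates 6 and 7), left 1 gene called by limma among 937 (153 at an unadjusted p under 0.05). That gene was the heat shock gene Hspa1a, chosen here after its value was seen, of whose 166 transcripts in the group 156 came from 1 cell of replicate 7. Of the 55 called genes named in the text, 14 stayed past 0.05 without each of the 3 libraries in turn: Lcn2, Retnlg, Mmp8, Ifitm6, Ly6g, Cd177, Wfdc21, S100a6, Anxa1, Alox5ap, Tkt, Ckap4, Syne1 and Gadd45b. The low-count filter kept 104 of the 1121 genes only through their level in granule-gene-rich cells, so that these had to differ. They include 15 of the 56 genes called higher, among them Cd177, Pglyrp1, Syne1, Adpgk, Aldh2, Fam101b, G6pdx and Slc2a3, whose fold changes and adjusted p are given as descriptions. Clec4n was kept only through the other cells.

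In the list of specific and gelatinase granule genes other than the gate genes, 8 of the 15 tested were higher and 0 lower. Over all genes tested these shares were 5% and 2.59%. The list median was 0.999 on the log2 scale. The 8 were Lcn2, Retnlg, Mmp8, Ifitm6, Cd177, Pglyrp1, Lrg1 and Dstn. The list name is loose, and the products of Ifitm6 and Dstn are not taken here as granule proteins. Cd177 and Pglyrp1 passed the low-count filter only through granule-gene-rich cells, so their part in this count is a description. In all 3 libraries, 14 of the 15 were higher, against 22.9% over all genes tested. Without replicate 6 or without replicate 7, 6 of 15 were called, and with cells of 2 to 4 gate transcripts 0 of 13. Of the 8, Pglyrp1 did not pass without replicate 6 or 7, Dstn not without 6, and Lrg1 not without any 1 of the 3. The list includes 4 of the markers given for the group (Lcn2, Retnlg, Mmp8 and Ifitm6), which were picked with these data known, so it is not independent evidence of its direction.

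Lcn2 stood at 9206, 9883 and 10939 CPM in the granule-gene-rich cells of aGVHD replicates 4, 6 and 7. In the other neutrophil cells it stood at 1867, 1628 and 2448 CPM. Both ranges lay apart, and the log2 fold change was 2.33 (SE 0.16, limma adjusted p = 7.92e-05). Without each of the 3 libraries in turn it was 2.22 to 2.41. In cells with 2 to 4 gate transcripts it was 0.85 (limma adjusted p = 0.0952). Lcn2 was found in 48 of 52 cells (92.3%, exact 95% interval 81.5% to 97.9%) and in 251 of 637 others (39.4%, 35.6% to 43.3%). With every cell thinned to 500 transcripts the shares were 67.3% and 16.2%. These others come from all 22 libraries. Within aGVHD replicates 4, 6 and 7, Lcn2 was found in 100% of granule-gene-rich cells of each. In the others of these 3 libraries it was found in 65.5%, 72.3% and 73.2%. After thinning, the shares there were 85.7%, 70.6% and 77.8% against 39.7%, 25.5% and 35.7%.

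Retnlg encodes resistin-like gamma, a secreted protein of neutrophils. Its level was 30667, 17761 and 14216 CPM, against 4892, 6395 and 4063 CPM in the others. Granule-gene-rich cells were higher in every library (log2 fold change 1.94, SE 0.21, limma adjusted p = 0.000552). Mmp8, the neutrophil collagenase, was at 7054, 4510 and 5125 CPM, against 1664, 1465 and 1520 CPM (log2 fold change 1.79, SE 0.17, limma adjusted p = 0.000226). After thinning to 500 transcripts, Retnlg was found in 71.2% of granule-gene-rich and 27.5% of other cells of all libraries, and Mmp8 in 57.7% and 10.4%. Within aGVHD replicates 4, 6 and 7, thinned Retnlg was found in 85.7%, 76.5% and 77.8% against 55.2%, 53.2% and 28.6%. Mmp8 was found there in 100%, 47.1% and 72.2% against 29.3%, 25.5% and 26.8%.

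Ifitm6, an interferon-induced transmembrane family member expressed in myeloid cells, was at 1196, 1263 and 2535 CPM, against 92.0, 140 and 369 CPM. Both ranges lay apart and differed by 3.07 on the log2 scale (SE 0.24, limma adjusted p = 0.000113). Ly6g encodes the surface antigen on which all cells had been sorted. Its transcript stood at 598, 842 and 1630 CPM in the granule-gene-rich cells and at 73.6, 267 and 211 CPM in the others (log2 fold change 2.43, SE 0.32, limma adjusted p = 0.00254). It was found in 31 of 52 granule-gene-rich cells (59.6%) and 36 of 637 others (5.65%), although the sort required the protein on both. Within aGVHD replicates 4, 6 and 7 the shares were 57.1%, 76.5% and 55.6% against 3.45%, 21.3% and 17.9%. After thinning to 500 transcripts they were 14.3%, 5.88% and 38.9% against 1.72%, 8.51% and 7.14%. Replicate 6 then went the other way.

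Cd177, a surface partner of proteinase 3 on neutrophils, was at 837, 621 and 706 CPM, against 46.0, 58.1 and 127 CPM (log2 fold change 3.02, SE 0.40, limma adjusted p = 0.00254). The values of both kinds did not overlap. Pglyrp1, a bactericidal protein that binds peptidoglycan, differed by 1.81 (limma adjusted p = 0.0281). Lrg1, a secreted leucine-rich glycoprotein, differed by 0.87 (limma adjusted p = 0.0286) and by -0.27 in cells with 2 to 4 gate transcripts. Genes of the list that missed the threshold were still on the higher side, among them Hp, which encodes haptoglobin (0.70, limma adjusted p = 0.0684), Mmp9, the gelatinase B gene (0.69, 0.0523), and Chil3, a chitinase-like protein gene (0.999, 0.0787). In cells with 2 to 4 gate transcripts Mmp9 was at -0.16.

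**Figure D3:**
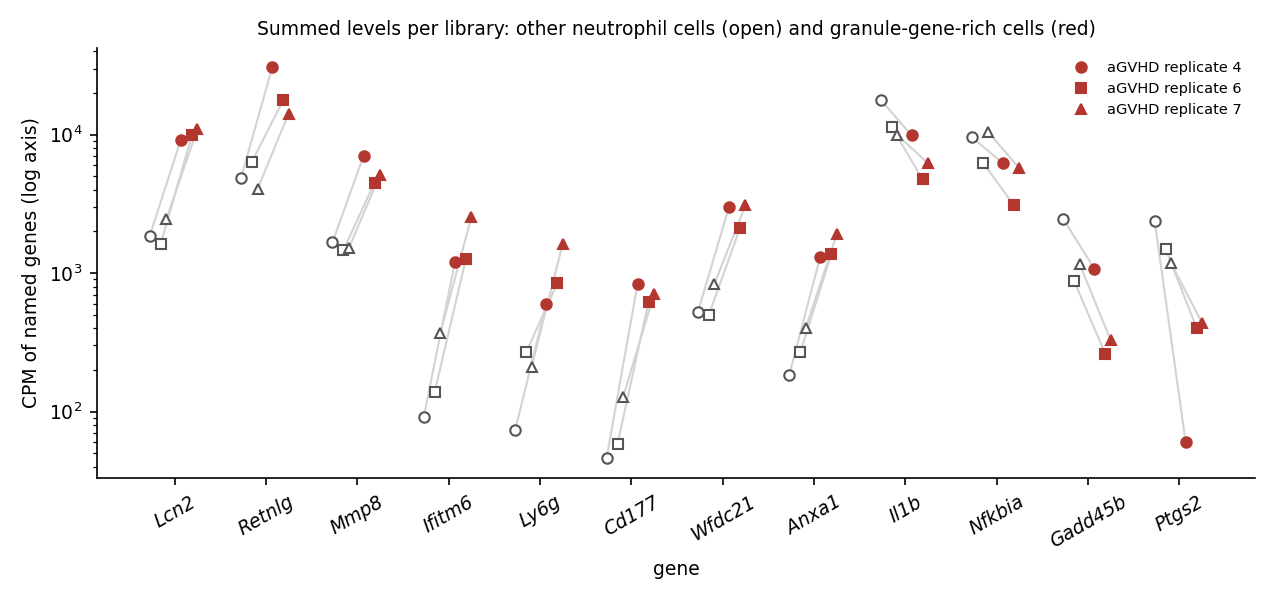
Level of 12 genes (CPM of named genes, y axis, log scale) in other neutrophil cells (open) and granule-gene-rich cells (red) of aGVHD replicates 4, 6 and 7, each pair joined by a line. Lcn2 runs from 1628 to 2448 CPM in other cells and from 9206 to 10939 CPM in granule-gene-rich cells, and Il1b, Nfkbia, Gadd45b and Ptgs2 are lower in granule-gene-rich cells of every library.

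Lcn2 tended to rise with the gate sum, and other markers did so in part. Lcn2 was found in 24 of the 28 cells with 2 to 4 gate transcripts (85.7%) and in all 24 cells with more. Its level was 2915 CPM in cells with 2 to 4, 10451 CPM with 5 to 19 and 23632 CPM with 20 or more. Other neutrophil cells with 1 gate transcript stood at 1679 CPM and those with 0 at 737 CPM. Lcn2 was thus higher in each of these bins than in the one before, as a description with no test. Inside the bin of 2 to 4 it was 3298 CPM in cells with exactly 2 and 2457 CPM in cells with 3. The bins pool different libraries: cells with 0 came from 22, those with 1 from 13 and those with 20 or more from 3. All other neutrophil cells of aGVHD replicates 4, 6 and 7 stood at 1867, 1628 and 2448 CPM. The part of the library in these steps, also in the step just outside the gate, was not tested.

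Retnlg and Mmp8 were ordered otherwise at the top. Retnlg was 7383, 34584 and 17193 CPM over the same bins, and Mmp8 was 1902, 7979 and 6961 CPM, so both were highest in cells with 5 to 19 gate transcripts. Ifitm6 went from 383 to 2191 and 4072 CPM, and Ly6g from 698 to 1405 and 1183 CPM. Over the 52 cells, Spearman's rho of the gate sum was 0.65 with Lcn2, 0.62 with Ifitm6, 0.57 with both Retnlg and Mmp8, and 0.33 with Ly6g. These points share libraries, and 35 of them come from 2 libraries.

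**Figure D4:**
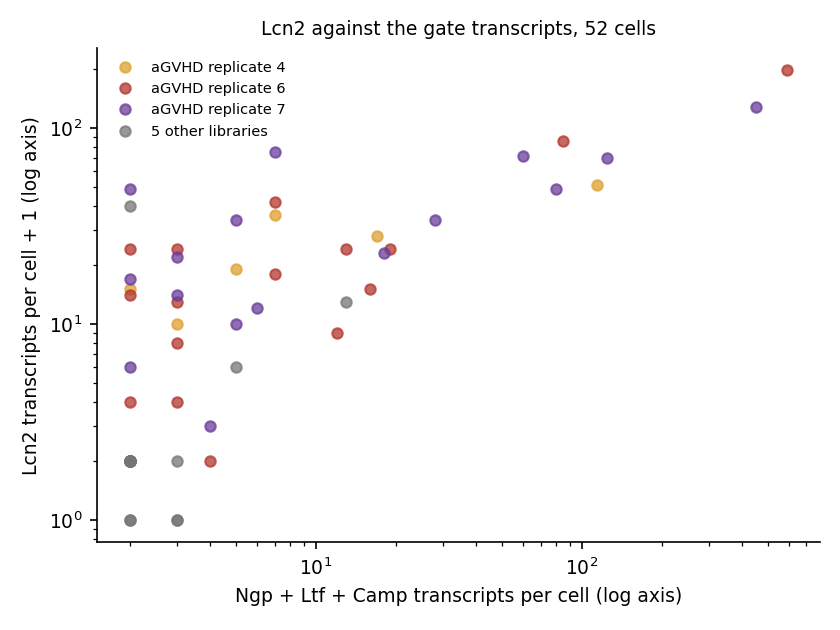
Lcn2 transcripts plus 1 (y axis, log scale) against Ngp, Ltf and Camp transcripts together (x axis, log scale) in each of the 52 granule-gene-rich cells, coloured by library. Cells with more gate transcripts tend to hold more Lcn2 (Spearman's rho 0.65), from 0 to 196 transcripts.

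Most tested genes in the list of calcium-binding S100 proteins and protease inhibitors, which also holds the annexin gene Anxa1, were higher. Of 6 genes of that list tested, 5 were higher, against 5% over all genes, and 0 lower (list median 1.49). S100a6 was at 8429, 7858 and 12061 CPM, against 1545, 2965 and 3208 CPM (log2 fold change 1.88, SE 0.20, limma adjusted p = 0.000552). Wfdc21, a small secreted WAP-domain protein, was at 2989, 2105 and 3079 CPM, against 524, 500 and 834 CPM (log2 fold change 2.11, SE 0.19, limma adjusted p = 0.000205). Anxa1, which encodes the anti-inflammatory annexin A1, was at 1315, 1363 and 1902 CPM, against 184, 267 and 401 CPM (log2 fold change 2.40, SE 0.22, limma adjusted p = 0.000205). None of these ranges overlapped. S100a11 (1.09) and Stfa2, a cysteine protease inhibitor gene (1.04), were the other members called. S100a11 did not pass without replicate 7, and Stfa2 not without any 1 of the 3. Without replicate 6, 4 of 6 were called, and without replicate 7, 3 of 8. In cells with 2 to 4 gate transcripts 0 of 7 were called, with a median of 1.02, and Anxa1 was at 0.46 (limma adjusted p = 0.676). S100a8 and S100a9 entered the rule for the comparison cells and are described only. S100a8 was at 56313, 46647 and 71354 CPM in granule-gene-rich cells, against 10042, 11953 and 19945 CPM.

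Part of the inflammatory genes was lower. In all 3 libraries, 13 of 18 NF-kB and cytokine genes tested were lower (18.9% over all genes tested), with a list median of -0.75. Of the 18, 0 were called higher and 7 lower, against 5% and 2.59% over all genes tested. These calls rested on both larger libraries: without aGVHD replicate 6 0 of 18 were called, without replicate 7 1 of 18, and the medians were -0.60 and -0.61. Without the library block, 0 of 18 were called. In cells with 2 to 4 gate transcripts 0 of 16 were called, with a median of -0.51.

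Il1b, which encodes the cytokine interleukin-1 beta, was at 9864, 4751 and 6194 CPM, against 17914, 11406 and 10004 CPM in the others (log2 fold change -0.96, SE 0.17, limma adjusted p = 0.00812). The granule-gene-rich value was the lower within every library, and the highest of the 3 lay just under the lowest of the others. Il1b was still found in 49 of 52 cells. Nfkbia, an NF-kB inhibitor that the pathway itself induces, was at 6217, 3087 and 5705 CPM, against 9591, 6279 and 10416 CPM (log2 fold change -0.86, SE 0.16, limma adjusted p = 0.00983).

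Ptgs2, the inducible prostaglandin synthase, was at 59.8, 401 and 435 CPM, against 2382, 1500 and 1182 CPM. The first of these values is 1 transcript. The groups did not overlap and differed by -1.77 on the log2 scale (SE 0.34, limma adjusted p = 0.0109). Il1a (-1.58) and Icam1, an adhesion molecule gene (-1.92), were also lower. Each was at 0 in 1 library of granule-gene-rich cells, so these fitted values are not bounds. Tnf (-1.35) and Il1rn, the interleukin-1 receptor antagonist gene (-0.94), completed the 7. The chemokine gene Cxcl2 did not pass (-0.39, limma adjusted p = 0.138), at 17037, 9482 and 9327 CPM against 19551, 12127 and 13529 CPM.

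Beyond the lists, the genes with the largest falls included Gadd45b, a stress-response gene, at 1076, 261 and 326 CPM against 2455, 872 and 1161 CPM (log2 fold change -1.57, SE 0.23, limma adjusted p = 0.00359). A single cell held 16 of its 49 transcripts in the group. Clec4n, which encodes the fungal receptor dectin-2 (-1.89), Csrnp1 (-1.46), the phosphatase gene Dusp2 (-1.41) and the class Ib histocompatibility gene H2-Q5 (-1.40) were lower as well, and these 4 did not pass without replicate 6 or without replicate 7. Pigr, the immunoglobulin transporter of epithelium, was also lower (-1.41, 31 transcripts in granule-gene-rich cells, not past 0.05 without replicate 7), and epithelial transcripts are given below.

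Among the tissue neutrophil genes, 1 of 8 was called lower, against 2.59% over all genes tested. A single call in so short a list says nothing of the list. Cxcr4, the receptor that holds neutrophils in the marrow and rises as they age, was at 299, 60.1 and 145 CPM, against 543, 488 and 549 CPM (log2 fold change -1.89, SE 0.46, limma adjusted p = 0.0373). It rested on 16 transcripts in granule-gene-rich cells. It did not pass without replicate 6 (limma adjusted p = 0.123) or without replicate 7 (0.194). Nr4a1 (-0.37) and Cd274, the PD-L1 gene (-0.58), did not pass.

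Of 20 late maturation genes tested, 0 were higher and 1, the chemokine receptor-like gene Ccrl2, was lower (-0.94, limma adjusted p = 0.0211, not past 0.05 without replicate 6 or 7). Over all genes tested 5% were called higher and 2.59% lower, so these counts say nothing of the list. Among dated libraries 2 of 20 were higher and 1 lower, against 68 and 34 of 1167 genes. With a gate of 5, 1 was higher and 2 lower, against 91 and 27 of 930. In the main fit the list median was 0.22. Summed, these genes reached 28305 to 39993 CPM in granule-gene-rich cells of the 3 libraries and 29312 to 34539 CPM in the others. Cxcr2 differed by 0.03 (and by -0.022 without replicate 7) and Csf3r, the G-CSF receptor gene, by -0.39, and neither passed (limma adjusted p = 0.945 and 0.26). The 3 granulocyte transcription factor genes tested, Cebpb (-0.06), Klf2 (-0.56) and Spi1 (0.86), did not pass either. A miss at n = 3 does not show that levels were equal. The test recovered 1.82% of simulated log2 changes of 1, 39.8% of 2 and 79.9% of 3 in about as many genes. That simulation had a set dispersion of 0.2 and no library effect, so these shares are not the power in these data. Here some changes under 1 were called, such as that of Il1b (-0.96).

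Interferon response genes gave 1 call in 18, Ifitm2 (0.80, limma adjusted p = 0.0409), with a list median of -0.28. This share is close to the 5% called higher over all genes tested, so it says nothing of the list. Leaving out any 1 of the 3 libraries ended that call. Isg15, an interferon-induced ubiquitin-like protein gene, was at 418, 301 and 580 CPM against 1186, 884 and 443 CPM, lower in 2 libraries and higher in replicate 7, and did not pass (-0.78, limma adjusted p = 0.251).

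Of the phagocyte oxidase genes, 1 of 6 passed as higher, against 5% over all genes tested, and 1 call says nothing of the list. Cybb, the catalytic subunit, was at 717, 1544 and 1576 CPM, against 552, 407 and 380 CPM (log2 fold change 1.57, SE 0.30, limma adjusted p = 0.0109). The values did not overlap, but 1 cell held 59 of the 176 transcripts in the group and the call was lost without replicate 6 (limma adjusted p = 0.0899) or 7 (0.131). The other 5 members were on the higher side without passing. Of 11 actin and motility genes, Actb (0.97), Actg1 (0.85) and Coro1a (0.88) were higher, against 5% over all genes tested. In that list 0 were called without replicate 6 or without replicate 7. Of 12 adhesion and chemoattractant receptor genes, Ly6g and Adam8, a sheddase gene (1.32, limma adjusted p = 0.00687, and 0.0541 without replicate 7), were higher and 0 lower. Over all genes tested the shares were 5% and 2.59%. Ly6g is also a marker given for the group, so these few calls say little of the list.

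A pair of genes with very large fitted changes rested on few transcripts and passed the filter only through granule-gene-rich cells. Syne1, which encodes a nuclear envelope spectrin-repeat protein, gave 47 transcripts in granule-gene-rich and 7 in other cells of the 3 libraries (log2 fold change 4.14, SE 0.76, limma adjusted p = 0.00983). Adpgk, an ADP-dependent glucokinase gene, gave 36 and 6 (3.49, SE 0.91, limma adjusted p = 0.0441), and did not pass without replicate 7 (0.154). Others among the 15 largest rises were Aldh2 (2.29), Fam101b (2.13), Ckap4 (1.99), Arhgdib (1.93) and G6pdx (1.91). Of these, Aldh2 and G6pdx did not pass without replicate 6, Arhgdib not without replicate 7, and Fam101b not without replicate 4 or 6.

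**Figure D5:**
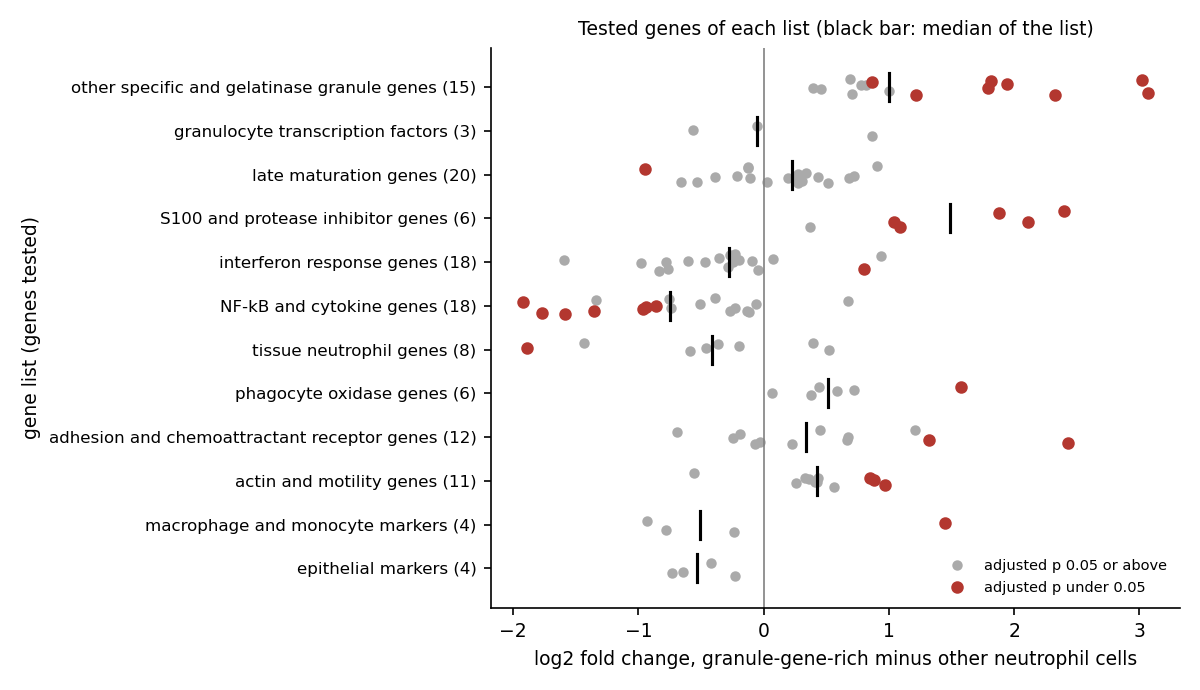
Log2 fold change of granule-gene-rich minus other neutrophil cells (x axis) for each tested gene of 12 lists, with genes past 0.05 in red and list medians as black bars. Specific and gelatinase granule genes (median 0.999) and S100 and protease inhibitor genes (1.49) lie on the higher side, and NF-kB and cytokine genes (-0.75) on the lower.

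Transcripts of other cell types were found in single cells of the group. In aGVHD replicate 11, 1 cell held 10664 immunoglobulin and J chain transcripts among 18388 (58.0%) and 0 of Lcn2, with 3 gate transcripts. That library was not in the fit. In aGVHD replicate 6, 2 cells held 325 and 97 epithelial transcripts. The 10 epithelial markers, of which Fabp2 and Apoa1 were at 0, summed to 0, 9843 and 272 CPM in granule-gene-rich cells and 423, 15464 and 274 CPM in others of aGVHD replicates 4, 6 and 7, and 0 of the 4 tested were called (median -0.53). These markers moved with the choice of cells. Without very deep cells 2 of 2 were called higher (median 2.84), against 61 of 958 over all genes tested. With other cells held to the depth range of the group 3 of 3 were called higher (2.53), against 54 of 932. With a gate of 5, 2 of 4 were called lower (-3.55), against 27 of 930. B and plasma cell markers were not tested with at least 5 cells of each kind. With at least 3, which brings in aGVHD replicates 3 and 11, 3 of 3 were called higher (6.69), against 75 of 908 genes. Their part in the other calls was not tested. The 13 macrophage and monocyte markers summed to 2152 to 3133 CPM against 2195 to 2400 CPM, with Ms4a7 and Cx3cr1 at 0 in the group. Of these, Ly6c2, which neutrophil precursors also express, was higher (1.45, limma adjusted p = 0.0056, and 0.0501 without replicate 7). T and NK cell markers summed to at most 59.8 CPM, with Cd3e, Cd3g, Trac, Cd8a and Cd4 at 0.

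No doublet caller was run. Totals over 4 times the median of their library were found in 4 of 52 granule-gene-rich and 27 of 637 other cells, and 98 genes were called without such cells. Unnamed gene models took 31.1% of transcripts in the group and 45.4% in the others, and mitochondrial transcripts were lower without any call (0 of 14, median -0.59). The part of these differences in the results was not tested. With 1 granule-gene-rich cell in the control group, gene levels inside the group were not compared between aGVHD and control.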

How the data were processed

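CEL-Seq2 libraries of sorted ileal neutrophils were analysed as 22 tables of genes by 192 barcodes. Per the submitters' processing notes, the tools included BWA 0.6.2-r126 and bcl2fastq 2.17.1.14, and no genome build was named in the labels used. The authors deposited estimated transcript counts per gene and barcode, each equal to the number expected from a whole number of 4096 possible identifiers. Here they were rounded to whole transcripts, and barcodes with at least 500 were kept. Per library the tables held 45607 to 360054 transcripts, which limits the precision of low genes.

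Groups came from the sample descriptions. Shares per library were compared by two-sided permutation of labels within title sets, with exact enumeration for groups under 10 libraries (scipy 1.17.1 in Python 3.11.15). Summed transcripts were tested with limma 3.58.1 (R 4.3.3): voom weights, trimmed-mean scaling, the library as block, unnamed gene models left out, genes kept with 15 transcripts in total and 10 at the median library size, and p-values adjusted by Benjamini and Hochberg at 0.05. Count models were not used, since the unit of the tables was entered as other. The test was tested on simulated data with a dispersion set at 0.2 and no library effect. Alternatives varied the cell minimum, the gate, thinning, filters, scaling, blocks and libraries. Those on the upper or lower end of the gate's cells, the depth range, a minimum of 3 cells and both largest libraries together were chosen after seeing the data.

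Members, markers and gene lists were chosen with earlier results of these data known. Named genes are the 8 markers, the 15 largest rises and 10 largest falls among called genes with 1 sign in every library, and the 4 members of each list with the highest level. Genes named beyond that rule, such as Tnf, Il1rn, Pglyrp1, Lrg1, Stfa2, Chil3, Mmp9, Isg15, Cxcr2 and Csf3r, were chosen after their values were seen. Each list named was tested as counts only, and no list test was run.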

Additional observations from a re-analysis of the deposited data

Results flagged for a closer look

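Among the 10 control libraries, replicate 3 stood apart from the others, with a share of granule-gene-rich cells of 4.17% where the other 9 stood at 0. The value is 1 cell of 24, and with the others at 0 any single such cell would stand apart in this way. Without this library the difference between aGVHD and control was 7.01 points (exact permutation p = 0.0235).

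The C1q limit left out 4 cells that held at least 2 transcripts of Ngp, Ltf and Camp, and these entered no comparison. All came from aGVHD libraries, 3 from replicate 7 and 1 from replicate 6. The highest of them, in aGVHD replicate 7, held 644 gate transcripts among 17265, more than any cell of the group, with 212 of Lcn2 and 3 of the C1q genes together. It held 804 transcripts of S100a8 and 862 of S100a9. The other 3 held 2 to 9 gate transcripts with 29, 49 and 244 C1q transcripts.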

How the results depend on the processing

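The share difference of 6.60 points stayed past 0.05 with all kept cells as denominator, with a minimum of 1000 transcripts, without very deep cells and without each of the 22 libraries in turn (4.82 to 7.23 points, permutation p 0.0154 to 0.0462). It kept its direction but not its side of 0.05 with a minimum of 250 transcripts (5.92 points), with gates of at least 5 (3.38) and 10 (2.18), after thinning to 500 (3.25), in libraries with at least 10 neutrophil cells (6.42), among dated (7.25) and G1 libraries alone (5.15), and without aGVHD replicates 6 and 7 (2.91). With the title number as replicate block it was 9.02 points (exact sign-flip p = 0.25). Correlations of deviations ran from -0.0905 to 0.192 and exceeded 0.1 in 4 of 6 pairs. Values so few and so low cannot settle whether the numbers pair the libraries.

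The 85 genes called became 13 (of 115 tested) with cells thinned to 500, 4 (of 12184) without the low-count filter, 50 with limma-trend, 9 without the library as replicate block, 54 without the highest cell of each library and 1 with 2 to 4 gate transcripts. Without each library in turn the count was 26 to 102. The other alternatives gave 79 to 118. Of these, keeping unnamed gene models gave 112 genes with 54.5% higher, against 65.9%. The G1 set alone could not be fitted, with 1 library.

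Of 55 called genes named in the text, Lrg1 alone changed sign (-0.27 with 2 to 4 gate transcripts). Among those not called, Cebpb reached 0.31 with a gate of 5, 0.072 in the dated libraries, with at least 10 cells of each kind and without replicate 4 (the same 2 libraries), and 0.077 without the highest cells, and without single libraries it ran from -0.17 to 0.072. Cxcr2 was at -0.25 without the low-count filter, -0.044 without very deep cells, -0.012 in the dated libraries, with at least 10 cells and without replicate 4, -0.089 with at least 3 cells, -0.35 with 2 to 4 gate transcripts and -0.035 within the depth range, and from -0.022 to 0.19 without single libraries. With 2 to 4 gate transcripts Mmp9 was at -0.16. The cause of these changes was not tested. Gene levels of granule-gene-rich cells in aGVHD against control were not tested, and no other setting was run, because control holds 1 such cell.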

Other observations

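Some enzyme genes were among the genes higher in granule-gene-rich cells, as seen after the test and not from a list. G6pdx, the first enzyme of the pentose phosphate pathway, was higher by 1.91 on the log2 scale (limma adjusted p = 0.00613) and Tkt, a transketolase of the same pathway, by 1.55 (0.00359). G6pdx and Slc2a3 passed the low-count filter only through granule-gene-rich cells. Gpi1 (1.15, 0.00812), Pygl, the liver-type glycogen phosphorylase (1.22, 0.0416), and the glucose transporter gene Slc2a3 (1.40, 0.0284) were also higher. So was Alox5ap, the partner of 5-lipoxygenase in leukotriene synthesis (1.30, 0.00254). All 6 were higher in each of aGVHD replicates 4, 6 and 7. Tkt and Alox5ap passed without each of these libraries in turn, while Gpi1, Pygl and Slc2a3 did not pass without replicate 6 or without replicate 7 and G6pdx not without replicate 6. In cells with 2 to 4 gate transcripts Tkt was at 0.022 (limma adjusted p = 0.987) and Alox5ap at 0.67, and neither passed.

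Among the lower genes outside the lists, Dusp1 (-1.12, limma adjusted p = 0.00613), Zfp36 (-0.91, 0.0123), Junb (-0.85, 0.0312) and Ppp1r15a (-0.92, 0.0356) were lower in all 3 libraries, as were the beta-glucan receptor gene Clec7a (-1.36, 0.00613) and H2-Q6 (-1.17, 0.0416). Dusp1 did not pass without replicate 6, Zfp36, Junb and Clec7a not without replicate 6 or 7, and H2-Q6 and Ppp1r15a not without any 1 of the 3. The heat shock gene Hspa1a was called higher (3.68, limma adjusted p = 0.00254), at 0, 140 and 2880 CPM against 239, 34.9 and 179 CPM. A single cell of aGVHD replicate 7 with 2 gate transcripts held 156 of its 166 transcripts in the group, and 5 of 52 granule-gene-rich cells (9.62%) and 58 of 637 others (9.11%) held any. These genes were named after their values were seen.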
